A study of Homo sapiens with 33 samples.

Results

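The last step of FOXL2-induced gonadal differentiation, from day 12 to day 14, was followed across all genes in the induced (IND) libraries. The table listed 58735 genes, and 19728 of them had enough counts in the 6 IND libraries of these days to be tested. These were 6 of the 33 libraries of the series, 3 at day 12 and 3 at day 14, and no gene was selected by its values. All libraries came from H9-DDdCas9VP192-FOXL2 clone 24, a single clone of the H9 line of human embryonic stem cells that carries a drug-dependent dead Cas9 activator directed to FOXL2. The cells were taken through a 14-day protocol on collagen-coated plates, and both IND groups received doxycycline (DOX) and trimethoprim (TMP) in the intermediate mesoderm medium from day 4 onwards. The IND groups therefore differed in the day of sampling and, with it, in the length of induction, and these cannot be told apart. The non-induced (CTRL) cells of the same days, which received neither compound, served as a comparison for the step. The 3 libraries of a group were technical replicates of 1 differentiation, so every p covers the spread between those replicates and not between differentiations. No group received DOX and TMP without the activator.

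FOXL2 is a forkhead transcription factor of the granulosa lineage and one of the earliest markers of the ovary. The somatic cells of the gonad arise from the coelomic epithelium that covers the intermediate mesoderm, a tissue marked by WT1, GATA4 and LHX9, and then give rise to supporting cells and stroma. Differentiation of pluripotent cells towards this tissue rarely gives pure cultures, and neurons, muscle, endoderm derivatives and surface epithelium are known side products.

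The 6 libraries held between 29348640 and 51900017 counts, and 3 counts, the floor used here, corresponded to between 0.0586 and 0.102 CPM, the read count normalised to library size with TMM factors over all libraries. The library IND day 12 replicate 1 stood apart from its group. The chi-squared of its counts per gene was 110.4 against replicate 2 and 85.6 against replicate 3, while replicates 2 and 3 gave 16.1 and the day 14 pairs gave between 10.0 and 22.9. Its ribosomal protein mRNAs summed to 109441 CPM, against between 65077 and 75626 CPM in the other 5 libraries. FOXL2 (ENSG00000183770), the activated gene, had 238, 214 and 221 CPM in the 3 day 12 libraries and 186, 182 and 149 CPM at day 14, and at most 0.205 CPM in any CTRL library of these days. The day 14 values lay below all day 12 values, but the change of -0.39 log2 did not pass the test (adjusted p = 0.161; adjusted p are Benjamini-Hochberg values from the quasi-likelihood test of edgeR throughout). Of the pluripotency factors of the starting line, POU5F1 had a mean of 0.216 CPM at day 12 and 0.0407 CPM at day 14 and NANOG of 0.0454 and 0.0167 CPM. Other genes of the pluripotency list were still expressed, and its sum was between 374.6 and 628.8 CPM at day 12 and between 278.0 and 319.2 CPM at day 14. Among gonadal genes, GATA4 was present at between 195 and 248 CPM, whereas NR5A1, the steroidogenic regulator of the gonad, had at most 0.442 CPM.

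From day 12 to day 14, 11 of 20 neuronal genes rose and 1 fell in IND, 7 of 27 HOX genes rose and 0 fell, and WT1 rose. Over the same step 9 of 12 endoderm and liver genes fell and 0 rose, and 6 of 20 smooth and cardiac muscle genes fell and 1 rose. In an epithelial list written after values were seen, 15 of 26 genes fell and 0 rose. When IND day 12 replicate 1, the library that stood apart, was left out, 1 endoderm and liver gene and 5 epithelial genes fell. Of the 19728 genes tested, 533 (2.7%) were called at an adjusted p under 0.05, 238 (1.21%) higher and 295 (1.5%) lower at day 14. Protein-coding genes made up 225 of the higher and 279 of the lower genes. The median absolute log2 fold change of the called genes was 1.25, and 366 of them changed by at least 1 log2. The smallest adjusted p was 0.00983, so the calls lay close to the threshold, and 3629 genes had an unadjusted p under 0.05. In 5669 genes (28.7%) the 3 day 14 libraries did not overlap the 3 day 12 libraries, among them all 533 called genes. The counts rested on particular libraries. Without IND day 14 replicate 1 or replicate 3, 0 genes were called in either direction, with smallest adjusted p of 0.0830 and 0.0748 and with 2528 and 2194 genes at an unadjusted p under 0.05. Without IND day 12 replicate 1, 578 of 20202 genes tested were higher and 573 lower. Of these, 209 and 217 were among the 238 and 295. Counts per list without that library are to be set against these larger totals.

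The 3 largest increases among the genes eligible for naming were in genes of neurons. NEUROD1 (ENSG00000162992, chromosome 2, 181673088 to 181680876, minus strand), a basic helix-loop-helix factor that drives neuronal differentiation, had 0.682, 0.767 and 1.91 CPM at day 12 and 11.2, 4.72 and 8.13 CPM at day 14. The gene rose by 2.88 log2 (SE 0.44, adjusted p = 0.0162). PPP1R17 (chromosome 7, 31686715 to 31708455), a protein phosphatase inhibitor known from Purkinje cells, rose from 2.77, 1.53 and 4.12 to 25.4, 9.93 and 21.97 CPM, a change of 2.78 log2 (SE 0.41, adjusted p = 0.0155). GRIA2 (chromosome 4, 157204182 to 157366075), an AMPA-type glutamate receptor subunit, rose from 0.440, 0.592 and 0.647 CPM to 4.58, 2.16 and 4.05 CPM, or by 2.69 log2 (SE 0.36, adjusted p = 0.0121). In each of these genes replicate 2 was the lowest of the day 14 libraries. Only genes whose days did not overlap were eligible for naming, so that separation adds no support. The sensory neuron factor POU4F1 rose by 2.10 log2 (adjusted p = 0.0398), the ATP-gated channel gene P2RX3 by 1.93 (adjusted p = 0.0144), the axonal adhesion gene CNTN2 by 1.87 (adjusted p = 0.0144) and EBF1, a helix-loop-helix factor of neurons and other lineages, by 1.92 (adjusted p = 0.0255).

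Of a list of 20 neuronal genes, all tested, 11 rose, 1 fell and 8 did not pass the test, with a median of 1.05 log2 against -0.0029 over all genes. Of all genes tested, 1.21% rose and 1.5% fell. The 11 included STMN2, which encodes a microtubule regulator of growing axons and went from between 13.6 and 23.6 CPM to between 44.8 and 74.4 CPM, the transcription factors NHLH1 and NEUROD4, and the neurofilament gene NEFL. The gene that fell was ISL1, a LIM homeobox factor of motor and sensory neurons that is also used in heart progenitors, from between 19.1 and 23.9 to between 12.5 and 14.6 CPM (-0.69 log2, adjusted p = 0.0427). Pan-neuronal genes did not all move: TUBB3 had a fitted change of 0.04 log2 and RBFOX3 of 0.05. Summed over the list, the day 12 libraries had 315.4, 267.7 and 397.0 CPM and the day 14 libraries 644.0, 511.6 and 602.3 CPM. CTRL libraries were higher on both days, with between 660 and 1181 CPM at day 12 and between 1021 and 1719 CPM at day 14. In bulk libraries a larger share of neurons and more of these mRNAs per neuron cannot be told apart. Of a list of 18 genes of neural progenitors, neural crest and glia, ZIC1 alone rose (1.16 log2, adjusted p = 0.0442), 0 fell and the median was 0.13 log2. When IND day 12 replicate 1 was left out, 9 neuronal genes rose and 1 fell. PPP1R17 then had an adjusted p of 0.145 and POU4F1 of 0.198.

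**Figure D1:**
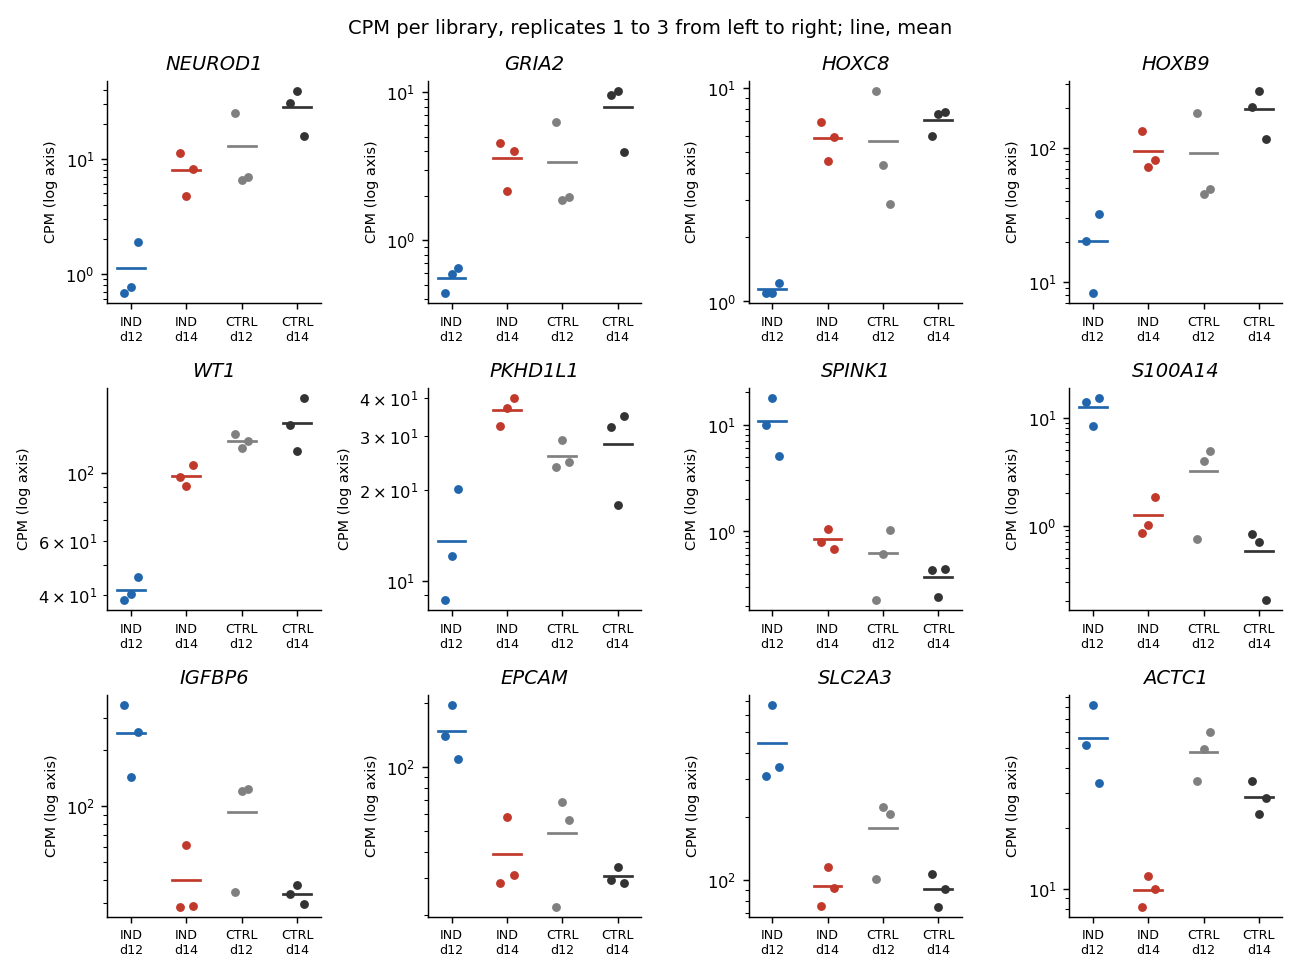
CPM on a log axis for 12 genes in the 3 libraries of IND day 12, IND day 14, CTRL day 12 and CTRL day 14, with the mean of each group as a line. The 12 genes were called, and in all 533 called genes the IND day 14 libraries lie entirely above or below the IND day 12 libraries. For NEUROD1 the levels were 0.682 to 1.91 CPM at day 12 and 4.72 to 11.2 CPM at day 14.

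HOX genes, the homeobox factors that mark position along the body axis, had mostly positive changes, and those of the genes with higher paralog numbers were larger. HOXC8 (chromosome 12, 54009106 to 54012362) had 1.10, 1.10 and 1.23 CPM at day 12 and 6.97, 4.57 and 5.92 CPM at day 14, an increase of 2.35 log2 (SE 0.25, adjusted p = 0.0104). HOXB9 (chromosome 17, 48621159 to 48626356) was more abundant and rose from 20.3, 8.30 and 32.0 CPM to 134, 71.8 and 81.4 CPM, or by 2.25 log2 (SE 0.42, adjusted p = 0.0274). HOXC6 rose by 2.10 log2 (adjusted p = 0.0278) and HOXD8 by 1.82 log2 (adjusted p = 0.0398). Of 27 HOX genes tested, 7 rose, 0 fell and 20 did not pass the test, where 1.21% of all genes rose. Fitted changes were above 0 in 25 of the 27, and the median was 1.14 log2. In 23 of the 27 the day 14 libraries lay above all day 12 libraries, as they did in 2897 of the 19728 genes tested.

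When the tested HOX genes were divided after their values were seen, the 12 genes of paralog groups 1 to 4 had a median of 0.56 log2 with 1 called, and the 15 genes of groups 5 to 9 had a median of 1.82 log2 with 6 called. HOXB2 had a fitted change of -0.10. HOXA9, a gene near the floor at day 12, had 0.308, 0 and 0.374 CPM there and 3.61, 0.910 and 1.19 CPM at day 14, and did not pass the test (adjusted p = 0.0891). In CTRL the medians of the paralog groups were 0.28 and 0.94 log2 for the corresponding step. HOXC8 lies within the annotated span of HOXC6, which also overlaps HOXC4, and HOXB9 overlaps HOXB7, so reads in shared exons could not be assigned with certainty. With that same library left out, 8 HOX genes rose and 0 fell. HOXB9 then had an adjusted p of 0.245 and HOXC6 of 0.159.

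WT1 (ENSG00000184937, chromosome 11, 32387775 to 32435630, minus strand), the zinc-finger factor required for the formation of gonad and kidney, more than doubled. It had 38.6, 40.3 and 45.8 CPM at day 12 and 96.4, 90.5 and 106 CPM at day 14, with replicates close together on both days, and rose by 1.23 log2 (SE 0.13, adjusted p = 0.0104). The CTRL libraries had between 117 and 175 CPM on these days. The antisense gene WT1-AS also rose, from between 5.39 and 6.91 to between 10.6 and 11.6 CPM (0.87 log2, adjusted p = 0.0353). The libraries did not keep strand and the annotated genes overlap, so their reads cannot be told apart in the shared part. WT1 was the only called member of 18 bipotential gonad factors, whose median was -0.02 log2. Without IND day 12 replicate 1, 1 of the 18 rose and 2 fell. GATA4 changed by 0.04 log2 (adjusted p = 0.900) and LHX9, at between 0.726 and 3.32 CPM, by 0.79 log2 (adjusted p = 0.351).

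The markers of coelomic epithelium and mesothelium divided into genes that rose and genes that fell. Of 20 members, 4 rose, 4 fell and 12 did not pass the test, with a median of -0.17 log2. Among all genes tested, 1.21% rose and 1.5% fell. PKHD1L1, a large transmembrane protein of mesothelium, rose from 8.69, 12.1 and 20.1 CPM to 32.3, 37.2 and 40.1 CPM (1.43 log2, SE 0.26, adjusted p = 0.0264). BNC1, a zinc-finger factor of mesothelium, rose from between 167.6 and 241.7 CPM to between 338.9 and 398.4 CPM (0.89 log2, adjusted p = 0.0256). The retinoic acid synthesis gene ALDH1A2 rose from between 30.2 and 40.3 to between 56.9 and 67.9 CPM (0.87 log2, adjusted p = 0.0212). The 4 that fell were keratin genes, which encode the intermediate filaments of epithelia. KRT19 fell from 821, 830 and 448 CPM to 272, 296 and 304 CPM (-1.28 log2, SE 0.22, adjusted p = 0.0231), KRT7 by 2.77 log2 and KRT8 by 1.05 log2, and KRT18 fell by 0.95 log2. Leaving out IND day 12 replicate 1, 5 of the 20 rose and 3 fell, with adjusted p of 0.0975 for KRT19 and 0.0585 for KRT7. UPK3B, a uroplakin of mesothelium, had between 24.5 and 29.4 CPM at day 12 and between 32.5 and 55.4 CPM at day 14 and did not pass the test (adjusted p = 0.125).

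Few supporting cell genes were called, where 1.21% of all genes rose and 1.5% fell. Of 22 early supporting and pre-granulosa genes tested, 0 rose and BMP2, a secreted signal expressed in pre-granulosa cells, fell (18.5, 23.7 and 22.2 CPM to 7.45, 12.7 and 10.5 CPM, -1.07 log2, adjusted p = 0.0283). LGR5, a receptor for R-spondins, had between 1.96 and 4.05 CPM at day 12 and between 1.60 and 2.29 CPM at day 14 (-0.61 log2, adjusted p = 0.331). OSR1 had -0.44 log2 (adjusted p = 0.242), TAC1 -0.73 (adjusted p = 0.357) and GATA2 0.42 (adjusted p = 0.347). RSPO1, an ovarian activator of WNT signalling, had 30.2, 18.0 and 22.2 CPM at day 12 and 31.6, 40.1 and 40.7 CPM at day 14, so that the groups did not overlap (0.67 log2, adjusted p = 0.116). WNT4, its partner in ovarian development, had a change of 0.84 log2 (adjusted p = 0.144), and FST, the activin-binding protein follistatin, of -0.58 log2 (adjusted p = 0.0852). Leaving out IND day 12 replicate 1, 3 of these genes rose and 5 fell, with adjusted p of 0.00401 for RSPO1, 0.0307 for WNT4 and 0.0387 for FST. In that fit 578 of all 20202 genes tested were higher and 573 lower. TSPAN8 was too low to be tested, with at most 0.416 CPM. Of 11 testis pathway genes tested, 0 passed the test in either direction, with SOX9 at -0.01 log2 (adjusted p = 0.977), and the same count of 0 held for 8 steroid synthesis genes.

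Endoderm and liver genes fell. Of 12 members, all tested, 9 fell, 0 rose and 3 did not pass the test, with a median of -1.66 log2. Over all genes 1.5% fell. AFP, the fetal serum protein alpha-fetoprotein, fell from 41.2, 102 and 34.7 CPM to 14.4, 16.9 and 9.22 CPM (-2.14 log2, SE 0.39, adjusted p = 0.0264). The pioneer factor of endoderm FOXA2 fell from 47.4, 88.7 and 32.4 CPM to 11.9, 20.4 and 8.19 CPM (-2.07 log2, adjusted p = 0.0296), FOXA1 changed by -1.95 log2 (adjusted p = 0.0398) and the thyroid hormone carrier TTR by -1.88 log2 (adjusted p = 0.0360). The others that fell were CDX2, VIL1, SOX17, APOA1 and APOA2. HHEX, a homeobox factor of anterior endoderm and liver, was outside the list and fell from 3.89, 15.5 and 3.47 CPM to 0.886, 0.861 and 0.762 CPM (-3.20 log2, SE 0.56, adjusted p = 0.0231). SPINK1, a secreted trypsin inhibitor of pancreas and gut, had the largest decrease among the genes eligible for naming, from 9.85, 17.7 and 5.07 CPM to 0.794, 1.06 and 0.684 CPM (-3.70 log2, SE 0.44, adjusted p = 0.0104).

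The summed level of the endoderm and liver list was 436.6, 563.3 and 363.0 CPM in the day 12 libraries and 110.8, 216.8 and 84.6 CPM in the day 14 libraries. Day 12 replicate 2 was the highest and day 14 replicate 2 the highest of its own group, and the groups did not overlap. On earlier days of induction the median was 671.0 CPM at day 8 and 541.0 CPM at day 10. CTRL libraries had between 71.9 and 199.96 CPM at day 12 and between 86.8 and 96.9 CPM at day 14. The calls of this list depended on several libraries. They were all lost without IND day 14 replicate 1 or replicate 3, as for all genes. With IND day 12 replicate 1 left out, 1 gene fell and 0 rose, while the median was -1.64 log2, and the adjusted p of AFP was 0.166 and of FOXA2 0.210. For HHEX, which lay outside the list, it was 0.0553. The cause was not tested.

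Genes of surface epithelium fell with the endoderm list. S100A14, a calcium-binding protein of epithelia, fell from 14.1, 8.46 and 15.2 CPM to 0.855, 1.01 and 1.86 CPM (-3.32 log2, SE 0.34, adjusted p = 0.0104). The serine protease gene PRSS22 fell by 3.21 log2, OVOL2, a zinc-finger factor that maintains the epithelial state, by 2.90 log2, the small GTPase gene RAB17 of polarised epithelium by 2.71 log2 and SCNN1A, a subunit of the epithelial sodium channel, by 2.65 log2, with adjusted p between 0.0154 and 0.0393. Over all genes 1.5% fell. In a list of 26 epithelial genes written after values had been seen, 15 fell, 0 rose and the median was -1.87 log2. Among them, the adhesion molecule gene EPCAM went from 140.7, 197.2 and 108.9 CPM to 28.3, 57.9 and 31.1 CPM (-1.94 log2, adjusted p = 0.0162), and the splicing regulator gene ESRP1 from between 23.7 and 61.3 to between 5.38 and 15.2 CPM. CDH1, which encodes E-cadherin, had a fitted change of -0.81 log2 and did not pass the test. Of 15 claudin genes tested, from a family also chosen afterwards, 5 fell and 0 rose, led by CLDN4 from between 82.9 and 135.3 to between 11.3 and 33.1 CPM. Of 14 keratin genes tested, 6 fell and 0 rose. The summed epithelial level was 1039, 1474 and 853.8 CPM at day 12 and 408.0, 617.9 and 466.9 CPM at day 14, and at most 689.5 CPM in the CTRL libraries of these days. After removal of IND day 12 replicate 1, 5 of the 26 epithelial genes, 2 claudin genes and 4 keratin genes fell. The epithelial median was then -1.99 log2, and PRSS22 had -3.45 log2 (adjusted p = 0.142) and SCNN1A -2.95 log2 (adjusted p = 0.182).

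Of 20 smooth and cardiac muscle genes tested, 6 fell, 1 rose and 13 did not pass the test, with a median of -0.85 log2. Among all genes tested, 1.5% fell and 1.21% rose. ACTC1, cardiac actin, fell from 52.1, 82.2 and 33.7 CPM to 8.19, 11.7 and 10.0 CPM (-2.50 log2, SE 0.29, adjusted p = 0.0104), and NPPB, a natriuretic peptide gene of the stretched heart, from 11.2, 18.2 and 6.64 CPM to 1.59, 2.02 and 2.35 CPM (-2.60 log2, SE 0.35, adjusted p = 0.0131). The atrial light chain gene MYL4 fell by 1.46 log2 and the smooth muscle gene TAGLN by 1.00 log2. RYR2, the calcium release channel of heart and neurons, rose from between 8.23 and 12.9 to between 20.2 and 22.3 CPM (1.07 log2, adjusted p = 0.0222). Leaving out IND day 12 replicate 1, 6 genes fell and 2 rose, and the adjusted p was 0.0746 for ACTC1 and 0.0599 for MYL4.

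Genes of glycolysis and the hypoxia response all had fitted changes below 0. Of 27 members, all tested, 4 fell, 0 rose and 23 did not pass the test, where 1.5% of all genes fell. In 21 of the 27 the day 14 libraries lay below all day 12 libraries, as they did in 2772 of the 19728 genes tested, and the median was -0.50 log2. SLC2A3, a high-affinity glucose transporter, fell from 312, 673 and 341 CPM to 75.6, 116 and 91.8 CPM (-2.23 log2, SE 0.28, adjusted p = 0.0119). ADM, the vasodilator peptide adrenomedullin, fell from 17.0, 25.3 and 14.0 to 3.42, 5.09 and 3.95 CPM (-2.18 log2, SE 0.25, adjusted p = 0.0104). LDHA, the lactate dehydrogenase subunit that ends anaerobic glycolysis, fell from 926, 771 and 757 to 444, 472 and 547 CPM (-0.75 log2, adjusted p = 0.0316), and BNIP3, a mitophagy receptor, from 162, 154 and 141 to 85.0, 96.0 and 102 CPM (-0.70 log2, adjusted p = 0.0242). Without IND day 12 replicate 1, 13 of the 27 fell and 0 rose, while SLC2A3 had an adjusted p of 0.0578. Summed levels were between 10474 and 13478 CPM at day 12 and between 7835 and 8477 CPM at day 14, and between 9205 and 10317 CPM in CTRL on both days.

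ACGTG is the core bound by hypoxia-inducible factors. The promoters of LDHA and BNIP3 are shown because both genes fell and both windows hold this core. Each window runs from 250 bases before to 50 bases after a RefSeq start (GRCh38.p14), and capitals mark ACGTG read on either strand, so that CACGTG, which holds it on both, is counted on each. The LDHA window, chr11:18394313-18394612 on the plus strand, holds 5 matches, the second LDHA window of the table, chr11:18396101-18396400, holds 0, and the single BNIP3 window, chr10:131981874-131982173 on the minus strand, holds 2.
LDHA: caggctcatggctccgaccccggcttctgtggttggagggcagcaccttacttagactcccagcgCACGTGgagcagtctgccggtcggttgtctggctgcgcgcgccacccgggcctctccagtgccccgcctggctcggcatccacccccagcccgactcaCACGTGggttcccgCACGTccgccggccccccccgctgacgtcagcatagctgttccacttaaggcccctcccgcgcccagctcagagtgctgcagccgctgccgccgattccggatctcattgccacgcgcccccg
BNIP3: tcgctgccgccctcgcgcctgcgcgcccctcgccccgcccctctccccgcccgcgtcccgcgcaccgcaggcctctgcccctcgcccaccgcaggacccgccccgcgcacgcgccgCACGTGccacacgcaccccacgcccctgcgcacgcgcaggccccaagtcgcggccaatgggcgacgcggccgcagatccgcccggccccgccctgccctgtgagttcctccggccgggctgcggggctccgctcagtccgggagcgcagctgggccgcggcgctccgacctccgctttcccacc
The core was present in 19 of 41 windows (46.3%) of the 24 list members found in the table, in 21.4% of all 35116 windows and in 24.4% of those of the genes tested. It was present in 23.4% of the windows of genes that fell and in 18.1% of those of genes that rose. The single ADM window holds 0 matches. A match is a description of these letters and not evidence of a bound factor.

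Some stress response genes also fell, where 1.5% of all genes fell. Of 21 genes of the integrated stress response, in which ATF4 controls amino acid supply, 4 fell, 0 rose and 19 had a fitted change below 0, with a median of -0.38 log2. STC2, a secreted glycoprotein gene, fell from 70.6, 89.2 and 65.3 to 37.1, 38.3 and 35.4 CPM (-1.03 log2, SE 0.14, adjusted p = 0.0144), ATF3 by 0.79 log2 and DDIT4, an inhibitor of mTOR, by 0.66 log2. Of 18 immediate early genes, which also respond to handling, 3 fell and 0 rose, among them IER3 (-1.32 log2, adjusted p = 0.0249) and FOS (-0.83 log2, adjusted p = 0.0446). Their summed level was between 588.7 and 645.3 CPM at day 12 and between 467.4 and 484.4 CPM at day 14, and its part in the other changes was not tested. After removal of IND day 12 replicate 1, 7 stress response and 5 immediate early genes fell and 0 rose. In that fit 573 of all 20202 genes tested fell. Of 79 ribosomal protein genes tested 0 were called, and their median was -0.22 log2, or 0.07 log2 without IND day 12 replicate 1. The cell cycle list had 0 calls among 24 genes, a median of -0.06 log2 and a largest fitted change of 0.63 log2. With that library left out, 1 of the 24 fell.

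Called stromal and matrix genes moved in both directions, while the summed levels of stromal mesenchyme and of collagen chains, which share genes, rose. The stromal sum was between 22822 and 27874 CPM at day 12 and between 30913 and 35796 CPM at day 14. In CTRL it was between 25325 and 26764 CPM and between 21967 and 28566 CPM. The collagen sum rose from between 27177 and 32415 CPM to between 35366 and 39551 CPM. In CTRL that sum was between 30394 and 31497 CPM and between 26174 and 33202 CPM. Of 25 stromal mesenchyme genes tested, 2 rose, 1 fell and 20 had a fitted change above 0, with a median of 0.30 log2. Among all genes tested, 1.21% rose and 1.5% fell. MFAP4, a microfibril protein gene, rose from 102, 63.7 and 90.5 to 160, 172 and 174 CPM (0.97 log2, SE 0.17, adjusted p = 0.0242), and COL6A3, a collagen VI chain gene, from 151, 228 and 219 to 329, 375 and 378 CPM (0.85 log2, adjusted p = 0.0295). SFRP4, a secreted WNT antagonist, fell from between 13.3 and 17.7 to between 6.97 and 9.67 CPM (-0.94 log2, adjusted p = 0.0338). Of 43 collagen chain genes tested, 5 rose and 3 fell, with a median of 0.01 log2. COL8A2 rose by 1.38 log2 and COL21A1 by 1.28 log2, whereas COL8A1 fell by 2.06 log2, COL19A1 by 2.18 log2 and COL2A1, the cartilage collagen gene, by 1.07 log2. The 10 small leucine-rich proteoglycan genes tested all had a fitted change above 0, with a median of 0.62 log2 and 0 calls, and DCN went from between 345.7 and 441.3 CPM to between 542.6 and 854.2 CPM (0.68 log2, adjusted p = 0.0956). When IND day 12 replicate 1 was omitted, 7 stromal, 9 collagen and 2 proteoglycan genes rose, and 1, 7 and 0 fell. In that fit 578 of all 20202 genes tested were higher and 573 lower. Of 15 laminin and basement membrane genes, LAMA4 rose by 1.27 log2, and LAMB3 and LAMA1 fell by 1.80 and 1.33 log2, of which LAMA4 (adjusted p = 0.0502) and LAMA1 (adjusted p = 0.0868) were not called without that library.

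In the WNT pathway 5 of 49 genes tested rose and 2 fell, with a median of 0.06 log2, where 1.21% of all genes rose and 1.5% fell. The receptor gene FZD5 fell from 27.5, 124 and 37.4 to 7.24, 14.6 and 8.21 CPM (-2.66 log2, SE 0.52, adjusted p = 0.0325), and the antagonist genes WIF1 and DKK2 rose by 1.33 and 1.48 log2. The ligand gene WNT2B rose from between 31.4 and 51.1 to between 78.0 and 94.7 CPM (1.14 log2, adjusted p = 0.0202). In the Hedgehog pathway the ligand gene IHH fell by 1.61 log2 and the co-receptor genes CDON and BOC rose by 1.33 and 0.60 log2 among 13 genes. In the IGF pathway 3 of 13 genes fell and 0 rose, and the 3 are named as IGF binding proteins. IGFBP6 fell from 352, 144 and 250 CPM to 28.8, 62.0 and 29.2 CPM (-2.65 log2, SE 0.37, adjusted p = 0.0144), IGFBP7 by 1.57 log2 and IGFBP2, from between 795 and 1393 to between 486 and 605 CPM, by 1.03 log2. In the TGF-beta, activin and BMP pathway 3 of 50 genes rose and 3 fell, beside 1.21% and 1.5% of all genes. GDF15, a stress-induced cytokine, fell from 44.3, 48.7 and 23.2 CPM to 5.04, 6.34 and 12.0 CPM (-2.32 log2, SE 0.35, adjusted p = 0.0162). The adjusted p without IND day 12 replicate 1 was 0.138 for FZD5, 0.0642 for DKK2, 0.131 for IGFBP6 and 0.139 for GDF15. In that fit 4 WNT pathway genes rose and 4 fell, and 2 IGF pathway genes rose and 2 fell. Of the TGF-beta, activin and BMP pathway 3 genes rose and 6 fell. Over all 20202 genes tested in that fit, 578 rose and 573 fell.

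The remaining genes with large changes included VEGFD, a lymphatic growth factor gene (from 1.91, 1.18 and 1.12 to 6.57, 5.41 and 5.71 CPM, 2.05 log2, adjusted p = 0.0119). DCT, a melanin synthesis enzyme gene that is also used in the developing nervous system, rose from 0.660, 0.854 and 1.33 to 5.47, 3.57 and 4.53 CPM (2.27 log2, adjusted p = 0.0144). C2orf88 rose by 2.02 log2 (adjusted p = 0.0162). LTB, a lymphotoxin subunit gene, fell by 3.20 log2 (adjusted p = 0.0195), and OR2I1P by 2.65 log2 (adjusted p = 0.0231). Among genes that were not protein coding, PTPRVP rose by 1.15 log2 and FLJ12825 by 0.91 log2, and PCAT14 fell from 81.1, 80.8 and 81.0 to 22.6, 36.0 and 16.6 CPM (-1.70 log2, adjusted p = 0.0144, or 0.0993 without IND day 12 replicate 1). AC010503.4 and AP000892.3 fell by 2.19 and 1.58 log2, and each overlaps a gene on the other strand.

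The step was also measured in CTRL, to see how far it belonged to the day rather than to the induced cells. Of 19637 genes tested in CTRL, 9 (0.0458%) were called, 7 higher and 2 lower at day 14, with 1552 at an unadjusted p under 0.05. DESeq2 called 226. Of the 9 genes, 4 were also called in IND, namely GDF15, HIC1, ALDH1A2 and UBA7. GDF15 fell by 1.72 log2 in CTRL and ALDH1A2 rose by 0.71 log2. Of the 235 genes higher in IND that could be tested in CTRL, 174 (74%) had a CTRL change above 0, and of the 284 lower genes 248 (87.3%) had one below 0. Over the 19037 genes tested in both steps, the shares were 51.6% and 48.4%. The medians of the higher genes were 1.04 log2 in IND and 0.22 log2 in CTRL, and those of the lower genes -1.43 and -0.41 log2. The genes were chosen by the IND change, which raises the IND medians. Neuronal genes had a median of 0.83 log2 in CTRL against 1.05 in IND, endoderm and liver genes -0.74 against -1.66, and glycolysis and hypoxia genes -0.07 against -0.50.

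The difference between the steps was tested as the IND step minus the CTRL step over the 12 libraries of both days. Of 20927 genes tested, 0 (0%) passed, with a smallest adjusted p of 0.0812 and 2653 genes at an unadjusted p under 0.05. DESeq2 called 208 genes. For WT1, which rose by 1.23 log2 in IND and changed by 0.20 log2 in CTRL, the difference of 1.02 log2 had an adjusted p of 0.0926. For HOXC8 the difference was 2.01 log2 (adjusted p = 0.179), for ACTC1 -1.77 log2 (adjusted p = 0.152) and for NEUROD1 1.74 log2 (adjusted p = 0.367). No gene was therefore shown to change differently in IND than in CTRL by edgeR's test. In simulated data of these 12 libraries, changes of 1 log2 were recovered in 49.5% and changes of 2 log2 in 91.3% of the altered genes. Only genes with a mean of at least 1 CPM were altered there, and no simulated library stood apart as IND day 12 replicate 1 did. The shares recovered may therefore not hold for the real data. Without CTRL day 14 replicate 3, IND day 12 replicate 1 or IND day 12 replicate 3, 47, 19 and 98 genes passed.

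**Figure D2:**
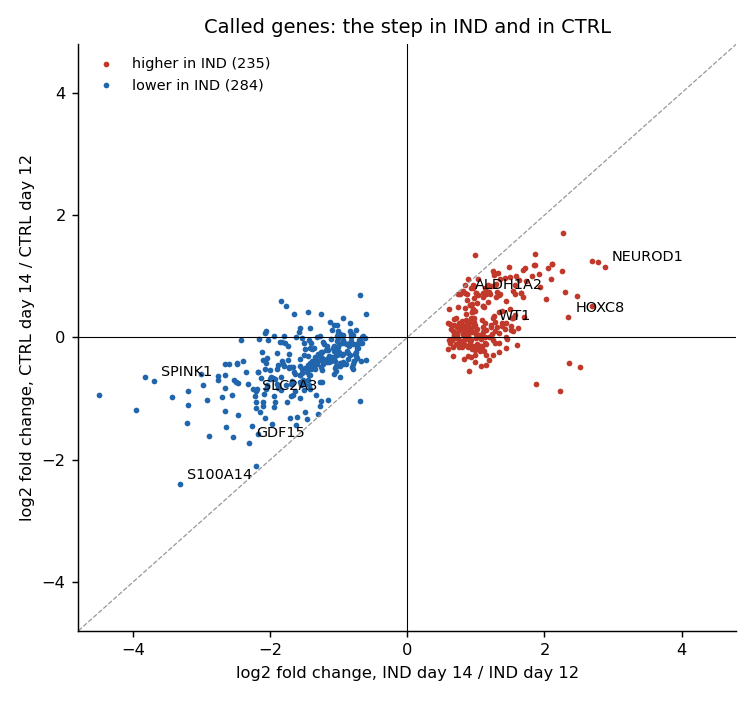
Log2 fold changes from day 12 to day 14 in IND (x axis) and in CTRL (y axis) for the 235 higher (red) and 284 lower (blue) called genes of IND that were tested in CTRL, with the dashed line marking equal changes. The CTRL change was above 0 in 174 of the higher genes and below 0 in 248 of the lower genes, with CTRL medians of 0.22 and -0.41 log2.

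The step was the last of a longer course. The neuronal sum in IND went from a median of 70.2 CPM at day 6 to 114.0, 236.5, 315.4 and 602.3 CPM at days 8 to 14, while CTRL was at a median of 131.1 CPM at day 6 and 1552 CPM at day 14. The HOX sum in IND had medians of 482.9, 432.4, 497.3, 573.5 and 788.9 CPM on the 5 sampling days from day 6 to day 14. Mean WT1 levels in IND on those days were 10.0, 16.1, 28.2, 41.6 and 97.6 CPM, against 144.9 CPM in CTRL at day 14. Scaled to gene length, the day 14 IND means were 23.6 FPKM for WT1 and 58.8 FPKM for FOXL2.

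**Figure D3:**
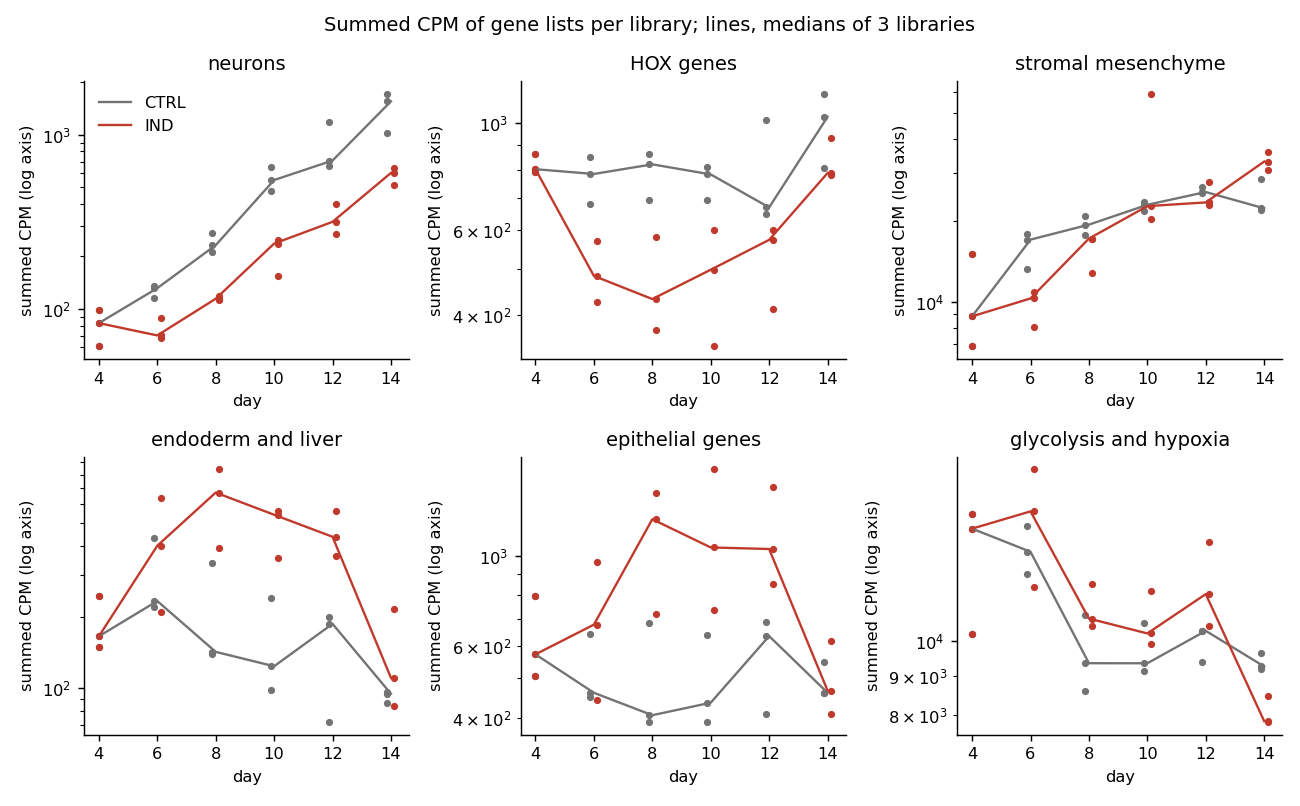
Summed CPM of 6 gene lists, on a log axis, in every library of IND (red) and CTRL (grey) by day of differentiation, with lines through the medians of 3 libraries. The endoderm and liver median of IND dropped from 436.6 CPM at day 12 to 110.8 CPM at day 14, next to 94.8 CPM in CTRL.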

How the data were processed

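RNA-seq was performed by the authors on 33 libraries in 11 groups of 3 technical replicates. Per the labels, reads were trimmed with fastp 0.23.2, mapped to GRCh38 with HISAT2 2.0.5 and counted per gene with featureCounts 1.5.0-p3, and the libraries were non-directional. The authors deposited gene counts without normalization, and FPKM with the gene length. All 20927 genes tested had the coordinates of GENCODE release 29. From the deposited counts, edgeR 4.0.16 in R 4.3.3 was used with filterByExpr, TMM, a robust quasi-likelihood fit and Benjamini-Hochberg adjustment (threshold 0.05) on the libraries of the groups compared. DESeq2 1.42.0, RLE factors, other filters, a fit over all libraries, limma 3.58.1 on log2(FPKM + 1) and log2(FPKM + 0.1), a replicate block and each library left out were alternatives. On simulated IND counts of 19728 genes, edgeR recovered 82.1% of changes of 1 log2 and 98.1% of changes of 2 log2, with 18 false calls among 199. Counts were drawn independently for each gene, so no simulated library stood apart, and only genes with a mean of at least 1 CPM were altered. SE are the absolute log2 fold change over the root of F. These SE include the spread between replicate libraries, whereas the floor of 3 counts covers counting error only.

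Named genes were the 12 largest protein-coding changes in each direction (average log2 CPM of at least 1, no overlap), 3 of other types, up to 4 called genes per list and the genes the study names. Further members of the lists were named after their values were seen. The gene lists and rules were chosen with earlier results of these data known. No set test was run. The values of some list members are not reported here.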

Additional observations from a re-analysis of the deposited data

How the results depend on the processing

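Against 238 higher and 295 lower genes, DESeq2 gave 614 and 714, no filter on low counts 812 and 1023, one fit over all 33 libraries 416 and 512, limma-trend on log2(FPKM + 1) 1 and 0, and limma-trend on log2(FPKM + 0.1) 4 and 0, with 3319 and 3338 genes at an unadjusted p under 0.05. A required change of 1 log2 left 130 higher genes. Without 1 library the counts lay between 0 and 578 higher and between 0 and 573 lower. The count of 0 came without IND day 14 replicate 1 and without replicate 3; without IND day 14 replicate 2 there were 104 and 203, and without IND day 12 replicate 2, 74 and 128. In CTRL, against 9 genes, DESeq2 gave 226, and without 1 library the count lay between 0 (without CTRL day 12 replicate 2 or 3) and 283 (without CTRL day 12 replicate 1), with 196 without CTRL day 14 replicate 3 and 1 without CTRL day 14 replicate 1. For the difference of the steps, against 0, DESeq2 gave 208, no filter 746, one fit over all libraries 2, limma-trend 2 and 1, and the range without 1 library was 0 to 98. The causes were not tested.

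With the replicate block, the counts were 492 higher and 594 lower in IND, 0 in CTRL and 0 for the difference, the last 2 with 1326 and 2658 genes at an unadjusted p under 0.05. The replicate numbers were not taken to pair the libraries, since the correlations of same-numbered IND libraries were 0.0275, 0.0951 and 0.0561, although each library correlated best with its own number. In all 533 called genes the days did not overlap, so a sign could hardly change and a kept sign adds no support. Of the 90 called genes among the 111 named and tested, all 90 kept their sign in the 11 alternatives run for named genes. Their calls were all lost without IND day 14 replicate 1, without replicate 3 and with limma, 32 were lost without IND day 12 replicate 1, 39 without IND day 12 replicate 2, 36 without IND day 14 replicate 2, 20 in one fit over all libraries, 8 without IND day 12 replicate 3 and 0 with DESeq2, RLE factors or the replicate block. List counts without IND day 12 replicate 1 were chosen after seeing the data. Depth limited genes near 0.1 CPM, such as TSPAN8.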

Other observations

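For the lists below, the shares over all genes tested were 1.21% higher and 1.5% lower at day 14. Of 9 pluripotency genes tested, 2 fell, 0 rose and 7 did not pass the test, with a median of -0.60 log2. LIN28A, an RNA-binding protein that blocks let-7 maturation, fell from 190, 321 and 211 CPM to 72.8, 86.7 and 64.7 CPM (-1.69 log2, SE 0.20, adjusted p = 0.0104), and ZFP42 fell by 1.71 log2 (adjusted p = 0.0162), whereas LIN28B had a fitted change of 0.16 log2. HLA-B, a class I antigen presentation gene that shares sequence with its paralogs, fell from 49.3, 36.9 and 32.1 to 13.0, 15.5 and 13.2 CPM (-1.51 log2, adjusted p = 0.0111). It was the only call among 15 genes of that pathway, whose median was -0.19 log2. Of 26 interferon-stimulated genes tested, ISG15 and IFI6 fell by 1.17 and 1.13 log2 and 0 rose. Without IND day 12 replicate 1, 0 of them were called, with adjusted p of 0.0676 for ISG15 and 0.217 for IFI6, and 3 genes of class I presentation fell.

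Among 15 cell cycle inhibitors and p53 targets, CDKN1A, the p21 gene, fell from 117, 115 and 97.3 to 64.4, 66.2 and 61.6 CPM (-0.79 log2, adjusted p = 0.0188), and GADD45A and GDF15 fell as well. Of 16 YAP and TEAD target genes, a list written after values were seen, ANKRD1, CYR61 and CTGF fell by 2.33, 1.18 and 0.66 log2 and 0 rose, whereas 6 fell and 1 rose when IND day 12 replicate 1 was left out. Of 22 glutamate receptor genes tested, also chosen afterwards, GRIA2 and GRIA4 rose and GRM8 fell and GRIA4 was at 8.67, 8.57 and 13.0 CPM before and 30.6, 24.1 and 43.1 CPM after. In the Notch pathway the ligand gene DLL1 fell by 0.99 log2 as the only call among 19. With IND day 12 replicate 1 left out, 1 Notch pathway gene rose and 1 fell, and DLL1 had an adjusted p of 0.0582. In the list of nephron progenitor and kidney genes, LRP2, an endocytic receptor gene, rose by 0.87 log2. SOX17, which is also in the endoderm and liver list, fell as the only called member of 15 endothelial genes. ACTA1 fell as the only call among 6 skeletal muscle genes. Of these 6 genes 4 had a fitted change above 0, and the median was 0.24 log2. Without IND day 12 replicate 1, 1 skeletal muscle gene rose and 1 fell. ALDH1A2 was the only call among 21 retinoic acid pathway genes, of which 3 rose and 1 fell without IND day 12 replicate 1. MT-ATP8, which overlaps MT-ATP6, was the only call among 13 mitochondrially encoded mRNAs, whose median was 0.38 log2. No gene was called among 12 heat shock, 24 cholesterol synthesis, 17 complement, 35 matrix protease and inhibitor, 29 histone and 2 blood and immune genes tested, with medians of -0.19, -0.14, -0.01, 0.23, -0.01 and -0.41 log2. After removal of IND day 12 replicate 1, 5 matrix protease and inhibitor genes rose and 1 fell, and 1 complement gene rose. The 3 genes of the FOXL2 locus had 0 calls, with -0.10 log2 for LINC01391 and 0.14 log2 for FOXL2NB.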
